A study of Mus musculus with 40 samples.

Results

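Expression of 10 endothelial and vessel growth genes was followed through large-scale rib repair in mice, namely Pecam1, Cdh5, Emcn, Vwf, Vegfa, Kdr, Flt1, Angpt1, Angpt2 and Tek. They were chosen by symbol, by a rule that uses no measured value, though with earlier results of these data known. All 10 were among the 21204 genes tested. The data are bulk RNA sequencing (RNAseq) of pieces of the rib cage that held bone, bone marrow and intercostal muscle, snap frozen and ground whole, so that no cell type was separated. The mice were wild type, and the methods of the study describe the mice used to characterize the phenotype as female and of a strain written there as C75BL/6. Immature mice were 7 weeks old and mature mice were older than 10 months. At each age, tissue was taken at baseline and at 0dpr, 2dpr, 5dpr and 14dpr, where dpr counts the days since a length of rib was resected, that is, cut out by surgery. The label of the baseline tissue speaks of collection after resection, and baseline is used here in the sense of the study, as rib before surgery, while the later stages are labelled as callus, the repair tissue of bone. Each group held n = 4 libraries, except mature mice at 5dpr with n = 3, because replicate 2 of that group was not analysed here. The labels number the replicates without saying whether each came from a separate mouse, so p-values measure the spread between these libraries.

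Blood vessels are lined by endothelial cells, which bone needs for the supply of oxygen and of cells during repair. Vascular endothelial growth factor, the product of Vegfa, acts on endothelial cells through the receptor that Kdr encodes, and the Flt1 product binds the same ligand and can act as a decoy for it. The receptor Tie2, the product of Tek, is activated by angiopoietin 1 and, in many settings, held back by angiopoietin 2, a ligand released by endothelial cells of vessels that are being remodelled.

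Kdr, Flt1, Tek and Vegfa were the 4 of these genes that were higher at 0dpr than at baseline and lower again at 2dpr in mature mice, and their upstream sequences are shown for that reason. RefSeq start sites on the GRCm38.p6 build were given for 5 of the 10 genes, with 6 promoter windows in all. The 250 bases before the start are printed 5′ to 3′ on the strand of the gene, and capitals mark the letters GGAAG or their reverse complement CTTCC, the core of sites for ETS factors, and ACGTG or CACGT, the core of hypoxia response elements, searched on both strands. The windows are Kdr, chr5:75978456-75978705, minus strand; Flt1, chr5:147726012-147726261, minus strand; Tek, chr4:94739039-94739288, plus strand; and Vegfa, chr17:46032378-46032627, minus strand.
Kdr: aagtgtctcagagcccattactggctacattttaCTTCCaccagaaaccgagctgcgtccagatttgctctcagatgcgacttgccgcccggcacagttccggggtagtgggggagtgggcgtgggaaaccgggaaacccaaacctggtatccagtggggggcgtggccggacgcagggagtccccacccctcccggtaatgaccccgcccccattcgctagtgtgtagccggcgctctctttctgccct
Flt1: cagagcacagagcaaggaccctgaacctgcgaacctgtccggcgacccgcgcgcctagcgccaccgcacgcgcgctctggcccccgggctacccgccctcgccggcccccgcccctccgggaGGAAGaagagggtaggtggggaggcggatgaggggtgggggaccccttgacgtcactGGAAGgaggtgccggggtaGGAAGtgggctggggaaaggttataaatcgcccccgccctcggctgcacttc
Tek: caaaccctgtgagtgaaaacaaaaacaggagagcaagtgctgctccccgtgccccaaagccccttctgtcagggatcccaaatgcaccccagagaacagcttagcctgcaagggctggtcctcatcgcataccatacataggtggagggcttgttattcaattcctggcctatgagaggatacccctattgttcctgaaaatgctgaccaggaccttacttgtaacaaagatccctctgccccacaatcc
Vegfa: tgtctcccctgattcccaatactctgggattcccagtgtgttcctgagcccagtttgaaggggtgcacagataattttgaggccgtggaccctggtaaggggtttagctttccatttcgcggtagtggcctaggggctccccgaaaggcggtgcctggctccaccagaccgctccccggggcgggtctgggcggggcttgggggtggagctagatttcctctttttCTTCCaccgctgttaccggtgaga
Counted over 300 bases, which add 50 bases after the start, GGAAG was found 1 time for Kdr, 3 times for Flt1, 0 times for Tek and 1 time for Vegfa, and ACGTG was found 0 times in these 4. The Emcn window had 2 matches to GGAAG, and a second RefSeq start of Vegfa had 2 matches to GGAAG and 1 to ACGTG. Of all 32851 promoter windows of this length, 71.4% held GGAAG and 19.6% held ACGTG. A match is a description of the letters only.

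Libraries held from 6057756 to 21537070 reads counted in genes (median 9087417), and each of the 10 genes had between 37 and 4670 reads in every library. Expression is given as CPM, read counts scaled to the library's size as corrected by edgeR's TMM method, and all tests are edgeR's quasi-likelihood test over 39 libraries with Benjamini-Hochberg adjustment over 21204 genes and a threshold of 0.05. Marker genes of other tissues differed between stages. The summed level of 20 skeletal muscle genes ranged from 120800 to 224500 CPM in immature and from 125600 to 252400 CPM in mature mice at 0dpr, and from 18590 to 29940 CPM and 15280 to 30280 CPM at 2dpr. The summed level of 8 macrophage genes was 1082 to 1865 CPM and 1132 to 2284 CPM at 0dpr, and 7064 to 8768 CPM and 6758 to 8363 CPM at 2dpr. None of these markers, and none of the 24 endothelial genes tested as a list, was at 0 in any group. Mature 2dpr replicate 3 stood apart in the endothelial list, with a summed level of 746 CPM against 1133 to 1246 CPM in the other 3 libraries of its group.

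**Figure D1:**
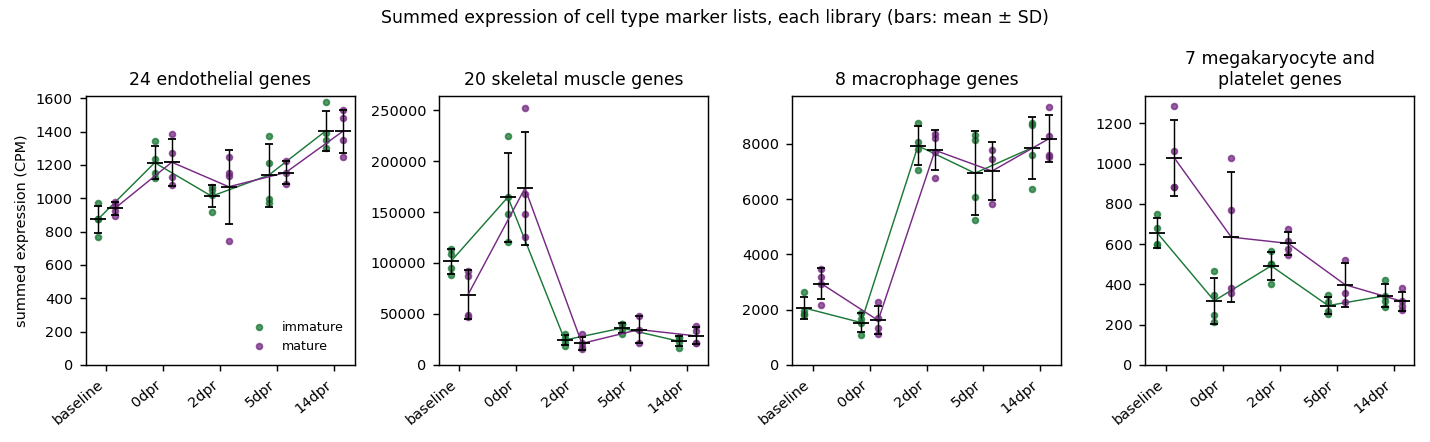
Summed expression (CPM, vertical axis) of 24 endothelial, 20 skeletal muscle, 8 macrophage and 7 megakaryocyte and platelet genes by stage (horizontal axis) in immature (green) and mature (purple) mice. Points are libraries, and black bars are the mean and SD (n = 4, or 3 for mature mice at 5dpr). Muscle genes are highest at 0dpr and every library of 2, 5 and 14dpr lies below every library of 0dpr, while macrophage genes are higher in every library from 2dpr on.

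The 10 genes moved mostly between baseline, 0dpr and 2dpr, the steps in which more of all tested genes were also called than later. Called changes had the same direction at both ages wherever both ages were called. Between baseline and 0dpr 10.6% of all tested genes were called in immature mice (5.98% higher, 4.66% lower), and 6 of the 10 rose and 0 fell. For mature mice the background was 22.5% (11.9% higher, 10.6% lower), and again 6 of the 10 rose and 0 fell. Between 0 and 2dpr, when 44% of all genes were called in immature mice (21.8% higher, 22.2% lower), 1 of the 10 rose and 5 fell. The total of 6 called was thus near the background. The same step in mature mice, with 47.6% of all genes called (22.7% higher, 24.9% lower), had 3 of the 10 rising and 6 falling. From 2 to 5dpr a single gene of the 10 rose at each age, with 8.05% of all genes called (4.37% higher, 3.68% lower) in immature mice and 14.5% (8.16% higher, 6.38% lower) in mature mice, so that both counts were near the background. Between 5 and 14dpr, 0 of the 10 genes were called at either age by edgeR, with 3.18% and 4.18% of all genes called. At an unadjusted p under 0.05 that step held 3 of the 10 in immature and 2 in mature mice, and DESeq2 called 1 and 2. Steps that follow each other share a group of libraries, for example those of 0dpr, and are therefore not independent of each other. Counted by overlap of libraries instead, the 4 consecutive steps in immature mice separated 4, 6, 1 and 4 of the 10 genes, against 13.2%, 38.4%, 19.4% and 15.1% of all genes. In mature mice they separated 6, 5, 1 and 3 of the 10, against 24.1%, 34.6%, 21% and 25.6% of all genes.

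**Figure D2:**
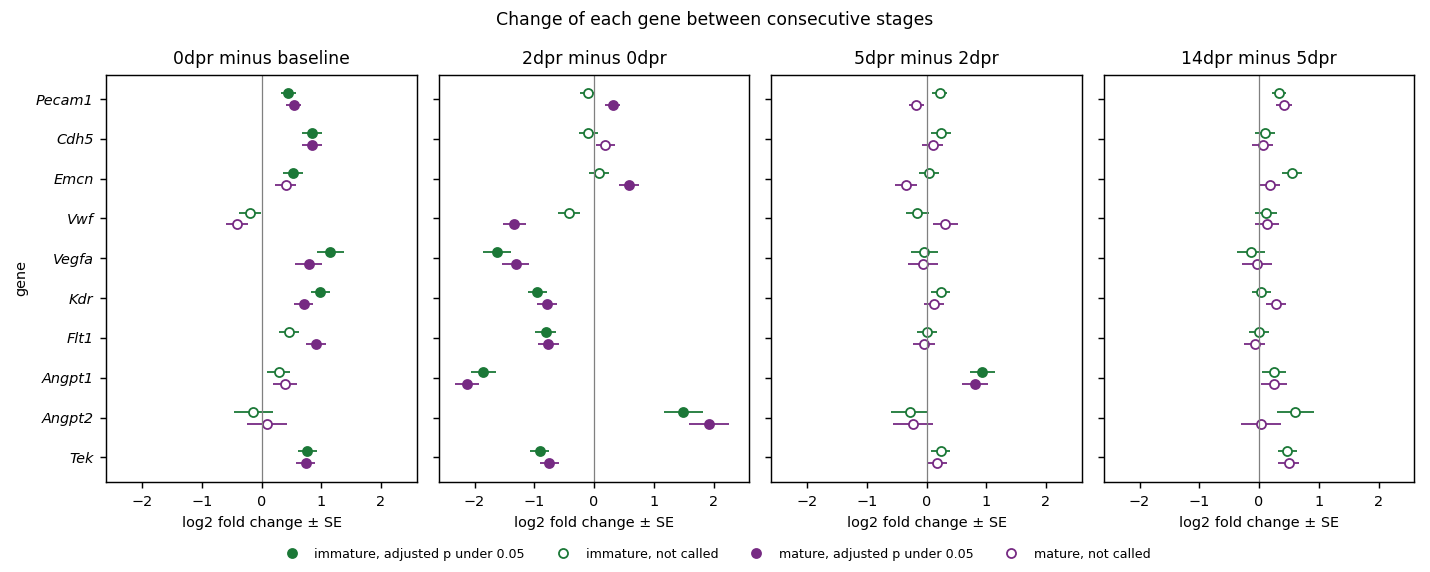
Log2 fold change (horizontal axis) of the 10 genes between consecutive stages in immature (green) and mature (purple) mice, with bars of 1 standard error (SE). Filled points passed an adjusted p of 0.05 and open points did not. Between 0 and 2dpr Angpt2 lies right of 0 and Angpt1, Vegfa, Kdr, Flt1 and Tek lie left of it at both ages, and between 2 and 5dpr Angpt1 alone is filled.

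Among the genes that rose in the first step at both ages were Pecam1, Cdh5, Kdr, Tek and Vegfa. Cdh5 (ENSMUSG00000031871; GRCm38 chromosome 8, 104101625 to 104144511, plus strand) encodes VE-cadherin, the adhesion protein that joins endothelial cells to each other. In immature mice Cdh5 was at 71.1, 65.4, 63.2 and 60.0 CPM at baseline and at 116, 107, 131 and 113 CPM at 0dpr, without overlap, a log2 fold change of 0.85 (SE 0.166, adjusted p = 0.00197, edgeR). Mature mice had 59.1, 56.1, 58.9 and 61.0 CPM at baseline and at 147, 82.8, 113 and 78.3 CPM at 0dpr, again without overlap but with a wider spread, a log2 fold change of 0.84 (SE 0.166, adjusted p = 0.000445, edgeR). In bulk tissue, a change in the number of endothelial cells cannot be told apart from a change in RNA per cell.

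Cdh5 was not called in the step after 0dpr. Its log2 fold change between 0 and 2dpr was -0.10 (SE 0.164) in immature and 0.19 (SE 0.164) in mature mice, and neither passed the test (adjusted p = 0.665 and 0.358, edgeR). Immature mice reached 139 ± 16.0 CPM (SD, n = 4) at 14dpr, against 64.9 ± 4.65 CPM at baseline, and mature mice 134 ± 16.5 CPM, against 58.8 ± 2.04 CPM (SD, n = 4 for each of these means). The comparison of 14dpr with baseline gave log2 fold changes of 1.09 (SE 0.166, adjusted p = 2.8e-06, edgeR) and 1.19 (SE 0.167, adjusted p = 6.33e-07, edgeR), with no overlap between libraries at either age.

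Pecam1 (ENSMUSG00000020717; GRCm38 chromosome 11, 106654217 to 106750628, minus strand) encodes CD31, a protein of endothelial junctions that platelets and some leukocytes also carry. In immature mice it was at 123, 125, 121 and 137 CPM at baseline and at 225, 229, 258 and 222 CPM at 14dpr. Mature libraries had 108, 107, 128 and 113 CPM at baseline and at 256, 212, 253 and 250 CPM at 14dpr. Every library of 14dpr lay above every baseline library at both ages, and the log2 fold changes were 0.89 (SE 0.123, adjusted p = 5.47e-07, edgeR) in immature and 1.09 (SE 0.123, adjusted p = 9.74e-09, edgeR) in mature mice. At 0dpr Pecam1 had already risen, with log2 fold changes from baseline of 0.45 (SE 0.122, adjusted p = 0.0174, edgeR) and 0.54 (SE 0.122, adjusted p = 0.00162, edgeR). In immature mice 5 of 8 fits without 1 library kept that call, and it was lost without replicate 3 of 0dpr (adjusted p = 0.0886, edgeR), replicate 3 of baseline (0.0581) or replicate 4 of baseline (0.0615). Between 0 and 2dpr it was called in mature mice alone (log2 fold change 0.31, adjusted p = 0.0334, edgeR), a call that 4 of the 8 fits without 1 library kept. Of 8 other settings of the analysis, 2 kept it, and DESeq2 was among those that did not (adjusted p = 0.0952).

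Emcn (ENSMUSG00000054690; GRCm38 chromosome 3, 137341067 to 137432185, plus strand) encodes endomucin, a sialomucin of capillary and venous endothelium that marks the vessels found near bone-forming cells. It was at 18.4, 15.9, 22.6 and 16.8 CPM at baseline and at 37.6, 40.9, 50.1 and 40.1 CPM at 14dpr in immature mice, with a log2 fold change of 1.20 (SE 0.171, adjusted p = 9.77e-07, edgeR). Emcn in mature mice was at 15.3, 21.2, 18.0 and 19.6 CPM at baseline and at 28.2, 33.6, 29.0 and 39.8 CPM at 14dpr, with a log2 fold change of 0.82 (SE 0.17, adjusted p = 0.000247, edgeR). The libraries did not overlap at either age. The path between these points differed in which step was called. Immature mice had a rise from baseline to 0dpr (log2 fold change 0.52, adjusted p = 0.0431, edgeR), which 3 of 8 fits without 1 library kept, and mature mice a rise from 0 to 2dpr (log2 fold change 0.58, adjusted p = 0.00443, edgeR). The difference between ages in the step from 0 to 2dpr was -0.50 on the log2 scale (SE 0.239) and did not pass the test (adjusted p = 0.43, edgeR).

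Comparison of 14dpr with baseline called 5 of the 10 genes higher and 2 lower in immature mice, where 31.4% of all genes were called (16.4% higher, 15.1% lower). In mature mice 5 were higher and 3 lower, and 33.5% of all genes were called (17.1% higher, 16.4% lower). The 5 that rose at both ages were Pecam1, Cdh5, Emcn, Tek and Angpt2. Libraries did not overlap for 6 genes in immature mice, against 38.9% of all genes, and for 8 in mature mice, against 37.6% of all genes. Of the 24 endothelial genes of the wider list, which also holds Tie1, Cldn5, Egfl7, Erg and Sox17, 17 rose and 1 fell at the immature age, and 18 rose and 1 fell at the mature age. Their median log2 fold changes were 0.77 and 0.84, against -0.04 and -0.03 over all tested genes. The list includes Pecam1, Cdh5, Emcn, Vwf, Tek, Kdr and Flt1, so its counts are not independent of those of the 10 genes. The gene of the list that fell at both ages was Vwf.

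Vwf (ENSMUSG00000001930; GRCm38 chromosome 6, 125546774 to 125686679, plus strand) encodes von Willebrand factor, which endothelial cells and megakaryocytes make and which binds platelets to damaged vessel walls. In mature mice Vwf was at 206, 285, 234 and 191 CPM at baseline, at 168, 197, 151 and 173 CPM at 0dpr and at 59.9, 75.7, 42.3 and 94.0 CPM at 2dpr. The fall between 0 and 2dpr was by 1.34 on the log2 scale (SE 0.191, adjusted p = 3.77e-07, edgeR), without overlap. In immature mice it was at 137, 133, 127 and 139 CPM at baseline, at 98.7, 134, 116 and 121 CPM at 0dpr and at 99.7, 76.8, 91.6 and 81.9 CPM at 2dpr. Its log2 fold change between 0 and 2dpr was -0.42 (SE 0.189) and was not called (adjusted p = 0.068, edgeR). From baseline to 14dpr Vwf fell by 0.66 in immature mice (SE 0.189, adjusted p = 0.00659, edgeR) and by 1.30 in mature mice (SE 0.191, adjusted p = 1.46e-06, edgeR) on the log2 scale.

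Between baseline and 14dpr 5 of 7 megakaryocyte and platelet genes fell at the immature age, 6 fell at the mature age and 0 rose. Their summed level was 594 to 749 CPM in immature and 882 to 1285 CPM in mature mice at baseline, and 290 to 424 CPM and 273 to 381 CPM at 14dpr. Between 0 and 2dpr 1 of the 7 genes rose at each age, while 5 fell in immature and 6 in mature mice. In that step 22.2% and 24.9% of all genes were called lower. The median summed level went from 298 to 500 CPM in immature and from 577 to 596 CPM in mature mice. The part of megakaryocytes and platelets in the level of Vwf was not tested. Relative to Cdh5 in the same library, Vwf had a median ratio of 2.02 in immature and 3.73 in mature mice at baseline, and of 0.604 and 0.675 at 14dpr.

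Vegfa (ENSMUSG00000023951; GRCm38 chromosome 17, 46016993 to 46032369, minus strand) encodes the main ligand of the family. In immature mice it was at 83.3, 76.9, 82.3 and 43.6 CPM at baseline, at 164, 146, 177 and 147 CPM at 0dpr and at 41.3, 46.9, 53.2 and 63.9 CPM at 2dpr. It rose by 1.15 on the log2 scale between baseline and 0dpr (SE 0.23, adjusted p = 0.00227, edgeR) and then fell by 1.63 (SE 0.233, adjusted p = 5.05e-07, edgeR), and the libraries of 0dpr lay above all of those before and after. Mature mice had 62.6, 83.3, 90.2 and 99.6 CPM at baseline, at 175, 103, 179 and 123 CPM at 0dpr and at 55.9, 44.6, 39.0 and 93.1 CPM at 2dpr. The rise was 0.79 (SE 0.228, adjusted p = 0.011, edgeR), kept in 6 of 8 fits without 1 library, and the fall was by 1.31 (SE 0.23, adjusted p = 1.23e-05, edgeR). At 5 and 14dpr the group means of Vegfa lay between 45.5 and 56.0 CPM. The 14dpr level was below baseline by 0.65 in immature mice (adjusted p = 0.0278, edgeR) and by 0.62 in mature mice (adjusted p = 0.0339, edgeR), with overlapping libraries, and 3 and 2 of 8 fits without 1 library kept these calls.

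Kdr (ENSMUSG00000062960; GRCm38 chromosome 5, 75932827 to 75978458, minus strand) encodes VEGF receptor 2, the signalling receptor of endothelial cells. At 0dpr it was at 147, 118, 181 and 106 CPM in immature and at 167, 114, 129 and 99.0 CPM in mature mice. At 2dpr it was at 62.9, 63.7, 83.4 and 76.3 CPM and at 70.4, 61.6, 88.7 and 73.8 CPM, below every library of 0dpr at the same age. Kdr had risen from baseline to 0dpr by 0.98 (SE 0.161, adjusted p = 0.000371, edgeR) and 0.71 (SE 0.16, adjusted p = 0.00154, edgeR) and then fell by 0.95 (SE 0.16, adjusted p = 8.48e-06, edgeR) and 0.79 (SE 0.16, adjusted p = 9.92e-05, edgeR) on the log2 scale. Its mean at 2dpr was 71.6 ± 10.0 CPM in immature mice, against 70.1 ± 14.5 CPM at baseline, and 73.6 ± 11.3 CPM in mature mice, against 77.9 ± 4.42 CPM (SD, n = 4 for each mean).

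Flt1 (ENSMUSG00000029648; GRCm38 chromosome 5, 147561604 to 147726011, minus strand) encodes VEGF receptor 1. It was at 37.4, 43.8, 46.6 and 49.1 CPM at baseline and at 119, 55.8, 91.2 and 66.5 CPM at 0dpr in mature mice, a rise of 0.91 (SE 0.17, adjusted p = 0.000269, edgeR). In immature mice the same step was 0.46 (SE 0.169) and was not called (adjusted p = 0.0739, edgeR). The difference between ages in that step was -0.45 (SE 0.239) and did not pass the test (adjusted p = 0.658, edgeR). Between 0 and 2dpr Flt1 fell by 0.81 (SE 0.17, adjusted p = 0.000178, edgeR) in immature and by 0.77 (SE 0.169, adjusted p = 3e-04, edgeR) in mature mice, and from 2 to 14dpr all group means lay between 44.6 and 48.7 CPM.

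Within libraries, the levels of the receptors relative to the junction gene Cdh5 were lower at 2dpr than at 0dpr in the medians. The median ratio of Kdr to Cdh5 in a library was 1.19 in immature and 1.21 in mature mice at 0dpr, and 0.669 and 0.581 at 2dpr. For Flt1 it was 0.689 and 0.806 at 0dpr, and 0.40 and 0.426 at 2dpr. For Tek it was 0.556 and 0.566 at 0dpr, and 0.321 and 0.299 at 2dpr. The Kdr ratio in mature mice ran from 1.13 to 1.37 at 0dpr and from 0.397 to 1.16 at 2dpr, with overlap. The other ranges of these 3 genes did not overlap between 0 and 2dpr. These ratios are given as a description, with no test. Within a library they do not depend on the scaling between libraries.

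**Figure D3:**
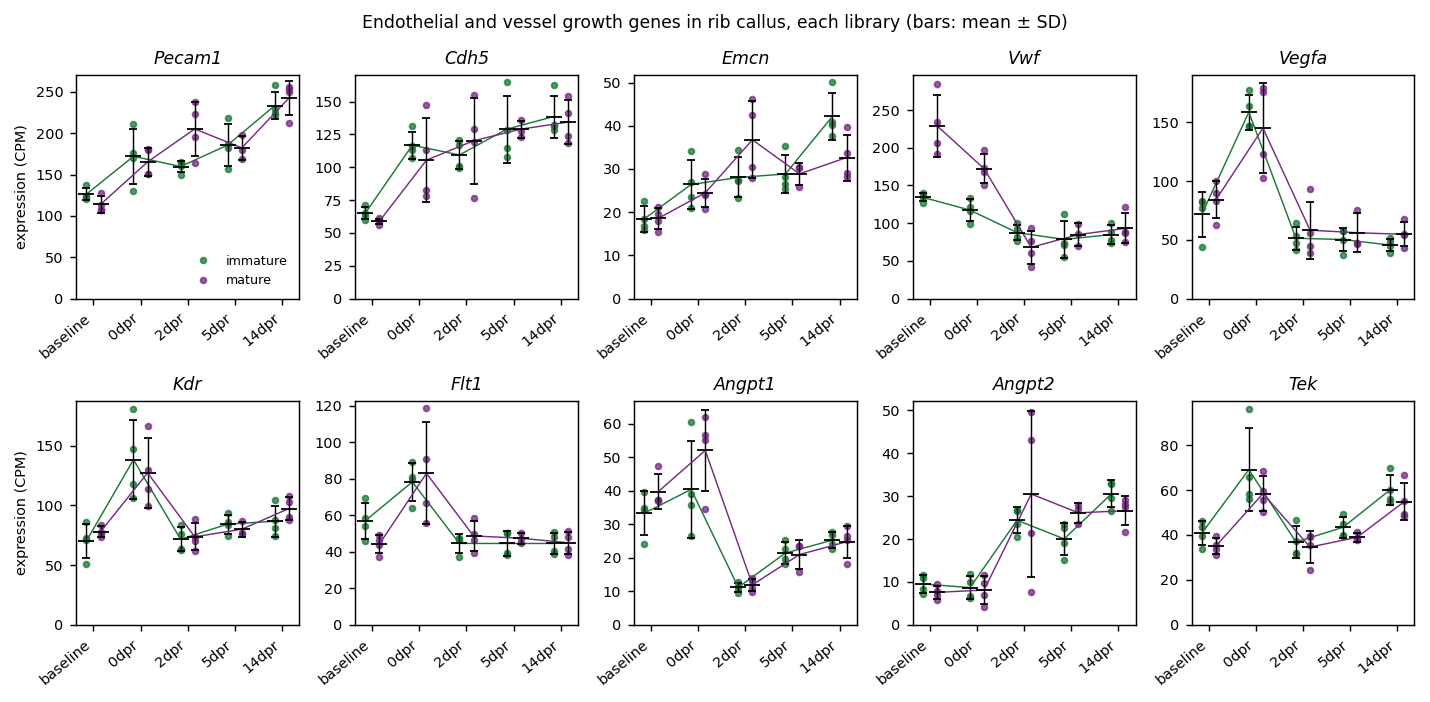
Expression (CPM, vertical axes starting at 0) of the 10 genes by stage in immature (green) and mature (purple) mice. Points are libraries, lines join group means, and black bars are the mean and SD (n = 4, or 3 for mature mice at 5dpr). Pecam1, Cdh5 and Emcn are higher at 14dpr than at baseline, Vegfa, Kdr, Flt1 and Tek peak at 0dpr, Angpt1 is lowest and Angpt2 raised at 2dpr, and mature baseline libraries stand above immature ones for Vwf.

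The angiopoietins moved in opposite directions between 0 and 2dpr. Angpt1 (ENSMUSG00000022309; GRCm38 chromosome 15, 42424723 to 42676977, minus strand) encodes the activating ligand of Tie2, made mainly by cells around vessels. It was at 26.4, 35.9, 60.4 and 39.0 CPM at 0dpr in immature mice and at 11.7, 9.57, 10.8 and 12.7 CPM at 2dpr. Angpt1 in mature mice was at 34.5, 62.0, 55.3 and 56.5 CPM at 0dpr and at 13.1, 9.79, 13.9 and 11.1 CPM at 2dpr. All libraries of 2dpr lay below all of 0dpr at both ages.

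The fall of Angpt1 was by 1.86 on the log2 scale (SE 0.208, adjusted p = 4.5e-09, edgeR) in immature and by 2.13 (SE 0.207, adjusted p = 1.35e-10, edgeR) in mature mice, the steepest of the 10 genes in these comparisons. At 5dpr the libraries were at 25.4, 19.7, 18.1 and 22.7 CPM in immature and 23.5, 15.8 and 23.7 CPM in mature mice, above all of 2dpr. Angpt1 was the 1 gene of the 10 called between 2 and 5dpr, with rises of 0.93 (SE 0.207, adjusted p = 0.00286, edgeR) and 0.81 (SE 0.216, adjusted p = 0.00907, edgeR). In mature mice 5 of 7 fits without 1 library kept the call, and without replicate 1 or replicate 4 of mature 5dpr the adjusted p was 0.0522 and 0.0629 (edgeR). The mature call was also lost with the muscle covariate described below. The antisense gene Gm17473 shares 737 exon bases with Angpt1, 14.2% of its exon length, and whether strand was used in counting is not given in the sources used here.

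Angpt2 (ENSMUSG00000031465; GRCm38 chromosome 8, 18690263 to 18741562, minus strand) encodes the ligand that competes with angiopoietin 1 at Tie2. In immature mice it was at 11.8, 6.29, 9.92 and 6.68 CPM at 0dpr and at 20.5, 23.5, 26.6 and 26.8 CPM at 2dpr, a rise of 1.49 (SE 0.327, adjusted p = 0.000308, edgeR) without overlap. Angpt2 in mature mice was at 9.73, 6.99, 4.10 and 11.7 CPM at 0dpr and at 49.7, 43.1, 7.66 and 21.5 CPM at 2dpr, a rise of 1.92 (SE 0.33, adjusted p = 8.88e-06, edgeR). The third of these 2dpr values belongs to replicate 3, the library that stood apart above, and lies within the range of 0dpr. Without that library the rise was 2.24 (adjusted p = 7.95e-09, edgeR).

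Angpt2 was above baseline at the last stage. At 14dpr it was at 26.4, 29.6, 33.1 and 32.9 CPM in immature mice and at 29.0, 21.7, 28.2 and 27.5 CPM in mature mice, all above the baseline libraries, which lay between 7.22 and 11.7 CPM and between 5.87 and 9.56 CPM. The log2 fold changes from baseline were 1.68 (SE 0.324, adjusted p = 9.66e-05, edgeR) and 1.81 (SE 0.327, adjusted p = 3.73e-05, edgeR), the largest rises of the 10 genes in these comparisons. Angpt1 ended at 25.3 ± 2.37 CPM and 24.8 ± 4.81 CPM at the immature and the mature age (SD, n = 4 each). That was below baseline by 0.68 in mature mice (SE 0.199, adjusted p = 0.00731, edgeR), and the difference of -0.40 in immature mice was not called (adjusted p = 0.132, edgeR).

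The read ratio of Angpt2 to Angpt1 within a library puts both changes in 1 value. In immature mice it was 0.448, 0.177, 0.165 and 0.173 at 0dpr, 1.75, 2.45, 2.46 and 2.11 at 2dpr and 0.888, 0.968, 1.30 and 0.671 at 5dpr. Mature mice had ratios of 0.283, 0.114, 0.0751 and 0.207 at 0dpr, 3.80, 4.39, 0.554 and 1.93 at 2dpr, and 1.15, 1.76 and 0.991 at 5dpr. Angpt1 had more reads in every library of baseline and 0dpr, and Angpt2 more in 7 of the 8 libraries of 2dpr.

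On the log2 scale the mean ratio differed by 3.32 between 0 and 2dpr in immature and by 3.78 in mature mice, and by -1.22 between 2 and 5dpr in immature mice. Each gave p = 0.0286 in an exact two-sided permutation test, the smallest p that 4 against 4 libraries allow, and an adjusted p of 0.124 over the 13 comparisons made, so that none passed the threshold after adjustment. In mature mice the ratio differed by -0.71 between 2 and 5dpr (exact permutation p = 0.371), and by -1.34 without replicate 3 of 2dpr (exact permutation p = 0.1). At 14dpr the mean log2 ratio was 0.27 ± 0.283 in immature and 0.11 ± 0.46 in mature mice (SD, n = 4 each), against -1.80 ± 0.528 and -2.40 ± 0.313 at baseline.

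**Figure D4:**
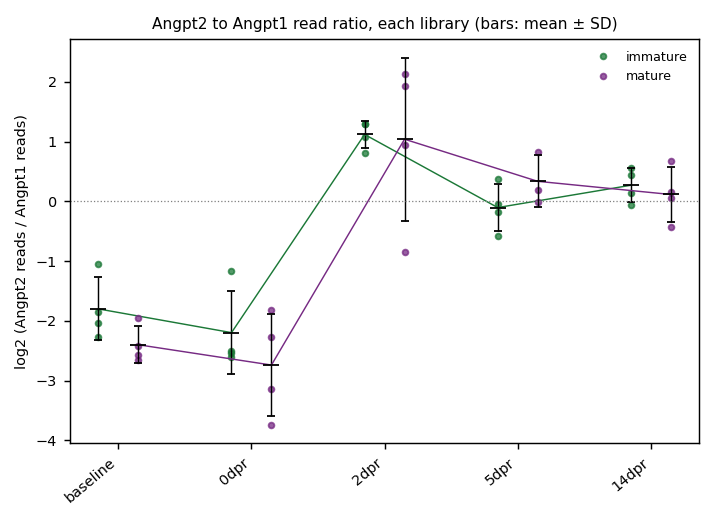
Log2 of Angpt2 reads over Angpt1 reads (vertical axis, 0.5 added to each count) in every library by stage, for immature (green) and mature (purple) mice, with the mean and SD as black bars. The libraries of baseline and 0dpr lie below -1, and those of 2dpr above 0.8 except mature replicate 3 at -0.85.

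Tek (ENSMUSG00000006386; GRCm38 chromosome 4, 94739289 to 94874976, plus strand) encodes Tie2, the receptor of both ligands. It was at 65.7, 58.3, 96.1 and 56.2 CPM at 0dpr and at 46.7, 31.5, 37.4 and 31.9 CPM at 2dpr in immature mice, and at 55.7, 50.02, 59.6 and 68.3 CPM and at 38.9, 39.6, 24.4 and 35.6 CPM in mature mice. It fell without overlap, by 0.91 (SE 0.16, adjusted p = 1.58e-05, edgeR) and by 0.75 (SE 0.159, adjusted p = 0.000175, edgeR). Tek was above baseline at 14dpr, at 60.1 ± 6.78 CPM against 40.8 ± 5.37 CPM in immature and 54.9 ± 8.37 CPM against 35.1 ± 3.52 CPM in mature mice (SD, n = 4 each). These rises were 0.56 (SE 0.159, adjusted p = 0.00601, edgeR) and 0.65 (SE 0.159, adjusted p = 0.00155, edgeR), while Kdr and Flt1 were not called in that comparison at either age, with adjusted p between 0.114 and 0.931 (edgeR), and the difference between genes was not tested.

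Among the 10 genes, levels per kilobase of exon placed Vegfa first at 0dpr and Pecam1 and Cdh5 first at later stages. At 0dpr, Vegfa was at 37.0 ± 3.46 CPM per kilobase in immature and 33.8 ± 8.89 in mature mice (SD, n = 4 each), followed by Cdh5 at 27.8 ± 2.45 and 25.1 ± 7.61 and Pecam1 at 27.6 ± 5.36 and 26.5 ± 2.75 CPM per kilobase. Cdh5 and Pecam1 lay within their spread of each other. At 2dpr Vegfa had dropped to 12.0 ± 2.26 and 13.6 ± 5.68 CPM per kilobase, below both Cdh5 and Pecam1, whose 4 group means lay between 25.6 and 33.0 CPM per kilobase. Angpt1 and Angpt2 exchanged places at the low end, from 7.77 ± 2.76 and 2.35 ± 0.717 CPM per kilobase at 0dpr to 2.15 ± 0.254 and 6.61 ± 0.809 CPM per kilobase at 2dpr in immature mice.

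Skeletal muscle has a dense bed of capillaries, and the level of muscle genes moved with the genes that peaked at 0dpr. Between 0 and 2dpr all 20 muscle genes fell at both ages, with a median log2 fold change of -2.78 in immature and -3.24 in mature mice. When the muscle score of each library, its mean log2 CPM over these 20 genes, was a covariate, 1 of the 10 genes remained called in immature mice at that step, Angpt1, and 1 in mature mice, Vwf (Angpt1 there had an adjusted p of 0.0569, edgeR). Calls over all genes fell from 44% to 7.15% and from 47.6% to 5.93% in that fit. The log2 fold changes became -0.63 and -0.39 for Kdr, -0.30 and -0.14 for Flt1, -0.46 and -0.20 for Tek, and -0.70 and -0.19 for Vegfa in immature and mature mice. For Angpt1 they were -1.30 and -1.47 and for Angpt2 0.65 and 0.87.

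Between baseline and 0dpr the same covariate left 4 of the 6 calls in immature and 0 of 6 in mature mice, with 5% and 1.17% of all genes called. The log2 fold change of Cdh5 in mature mice was then 0.77 against 0.84 without the covariate (adjusted p = 0.0641, edgeR), that of Flt1 0.67 against 0.91, and that of Vegfa 0.36 against 0.79. Muscle content and stage cannot be told apart where their libraries do not overlap, as at 0 and 2dpr. The same holds for baseline against 0dpr and against 14dpr. The summed level of the 20 muscle genes was 87840 to 114000 CPM in immature and 47290 to 92240 CPM in mature mice at baseline. At 14dpr it was 16390 to 27760 CPM and 21310 to 38010 CPM. Calls that remain with the covariate therefore do not separate stage from muscle content. Over the longer interval the rises of Pecam1, Cdh5, Emcn and Tek from baseline to 14dpr remained called with the covariate at both ages, with log2 fold changes of 1.15 and 1.25 for Pecam1, 1.21 and 1.26 for Cdh5, 1.50 and 0.99 for Emcn, and 0.91 and 0.86 for Tek. Those of Angpt2 were 1.04 in immature mice, no longer called (adjusted p = 0.255, edgeR), and 1.43 in mature mice (adjusted p = 0.00927, edgeR). The fall of Vegfa did not remain, with a log2 fold change of 0.071 in immature (adjusted p = 0.945, edgeR) and -0.17 in mature mice (adjusted p = 0.736, edgeR).

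Immature and mature mice were then compared at each stage, the question the study put to these samples. At baseline, 1 of the 10 genes differed, Vwf, against 0.585% of all genes (0.358% higher and 0.226% lower in immature mice). It was lower in immature mice, at 134 ± 5.52 CPM against 229 ± 41.2 CPM (SD, n = 4 each), without overlap, and the difference was -0.77 on the log2 scale (SE 0.188, adjusted p = 0.0448, edgeR). The call was near the threshold, and 1 of 8 fits without 1 library kept it, the one without replicate 4 of mature baseline. Without replicate 2 of mature baseline, the library with the highest level, the difference was -0.65 (adjusted p = 0.234, edgeR). The 7 megakaryocyte and platelet genes had a median difference of -0.69 in the same comparison and 0 of them were called. Their summed level at baseline, given above, did not overlap between ages.

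At 0, 2, 5 and 14dpr, edgeR called 0 of the 10 genes between ages, with 0.726%, 0.627%, 0% and 0.00943% of all genes called. At an unadjusted p under 0.05 there were 1, 2, 0 and 1 of the 10, and DESeq2 also called 0 at each of these stages. The 95% intervals of the log2 differences show what size could have been missed. For Cdh5, they ran from -0.19 to 0.48 at 0dpr, from -0.47 to 0.20 at 2dpr, from -0.36 to 0.36 at 5dpr and from -0.29 to 0.38 at 14dpr. For Angpt2 they were wider, from -0.58 to 0.79, from -0.95 to 0.30, from -1.06 to 0.29 and from -0.43 to 0.83. Intervals that left out 0 without a call were those of Flt1 at baseline, 0.37 (0.022 to 0.71), Pecam1 at 2dpr, -0.36 (-0.61 to -0.11), and Emcn at 2dpr, -0.39 (-0.73 to -0.048), and at 14dpr, 0.37 (0.030 to 0.71), with adjusted p between 0.172 and 1 (edgeR). At 0dpr Vwf did not overlap between ages either, at 117 ± 14.5 CPM in immature and 172 ± 19.1 CPM in mature mice (SD, n = 4 each), a difference of -0.55 (95% interval -0.94 to -0.17) that was not called (adjusted p = 0.185, edgeR). Libraries of the ages were separated for 1 of the 10 genes at baseline and 1 at 0dpr, Vwf each time, against 9.05% and 3.73% of all genes, for 0 at 2dpr and 14dpr, against 4.98% and 5.49%, and for 1 at 5dpr, Angpt2, against 10.2%.

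**Figure D5:**
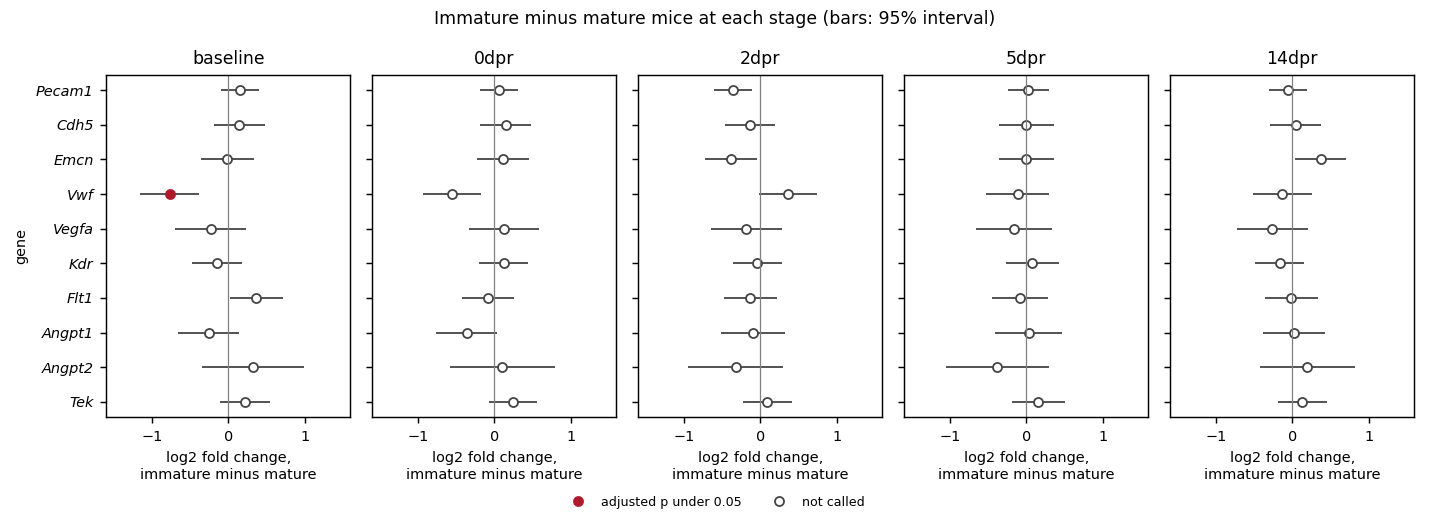
Difference between immature and mature mice on the log2 scale (horizontal axes, immature minus mature) for the 10 genes at each stage, with 95% intervals. The filled red point is Vwf at baseline, at -0.77, the 1 comparison with an adjusted p under 0.05.

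The change between stages was also compared between ages, through the interaction of age with each of 5 stage comparisons. EdgeR called 0 of the 10 genes in every one, with 0.0141% of all genes called in the step from baseline to 0dpr, 0.0613% from 0 to 2dpr, 0% in the later steps and 0.0472% in 14dpr against baseline, and DESeq2 called 0 as well. Unadjusted p-values under 0.05 were found for 3 of the 10 genes in the step from 0 to 2dpr, Vwf, Pecam1 and Emcn, for 1 in the step from 2 to 5dpr, Pecam1, and for 1 in 14dpr against baseline, Vwf. Vwf had the largest difference in the step from 0 to 2dpr, 0.92 on the log2 scale (SE 0.267, adjusted p = 0.207, edgeR), with log2 fold changes of -0.42 in immature and -1.34 in mature mice.

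Other genes of the same pathways were described from lists that hold 80 further genes beside some of the 10. Of the 10 VEGF ligands and receptors, 3 of them members, 4 rose and 5 fell at the immature age between 0 and 2dpr, and 4 rose and 4 fell at the mature age, where 44% and 47.6% of all genes were called in either direction. Vegfb, a ligand of the Flt1 receptor, fell from 27.0 ± 1.80 to 7.72 ± 2.40 CPM (log2 fold change -1.81, adjusted p = 5.87e-06, edgeR) and from 39.2 ± 18.7 to 4.92 ± 2.06 CPM (-2.97, adjusted p = 5.84e-10, edgeR; SD, n = 4 each). The list of 12 tip cell and sprouting genes holds Angpt2, whose rise over the same step is counted here too. Of the 12, 5 rose and 0 fell in immature mice, against 6 and 2 in mature mice, beside 21.8% and 22.7% of all genes called higher. The largest rise among them was in Apln, which encodes the ligand of the apelin receptor, from 3.43 ± 0.978 to 30.6 ± 4.05 CPM (log2 fold change 3.13, adjusted p = 8.54e-09, edgeR) and from 3.04 ± 0.995 to 46.3 ± 30.2 CPM (3.92, adjusted p = 8.48e-11, edgeR; SD, n = 4 each).

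The 12 genes of the hypoxia response list, a process that raises Vegfa transcription, moved in both directions between 0 and 2dpr. Of these, 4 rose and 5 fell at the immature age, and 4 rose and 3 fell at the mature age, beside the same 44% and 47.6% of all genes. Hif1a, which encodes a subunit of the hypoxia-inducible factor, rose from 76.9 ± 9.07 to 315 ± 64.7 CPM (log2 fold change 2.03, adjusted p = 1.54e-11, edgeR) and from 61.9 ± 5.95 to 434 ± 111 CPM (2.81, adjusted p = 1.01e-14, edgeR; SD, n = 4 each), while Vegfa fell. RNAseq does not measure the level or activity of the protein, and a link between Hif1a and Vegfa was not tested. Between baseline and 0dpr, 5 of the 12 rose and 0 fell at each age. Of all genes, 5.98% in immature and 11.9% in mature mice were called higher. Adm, which encodes the vasodilator adrenomedullin, rose in mature mice (log2 fold change 1.83, adjusted p = 4.87e-05, edgeR). Its mean in immature mice went from 3.68 ± 0.449 to 7.41 ± 1.63 CPM (SD, n = 4 each). Of the 20 skeletal muscle genes, 1 rose in immature and 19 in mature mice in that step, and 0 fell. The part of muscle in these rises was not tested.

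Of the 9 mural cell genes, which mark pericytes and smooth muscle of the vessel wall, 1 rose and 4 fell at the immature age between 0 and 2dpr, and 0 rose and 5 fell at the mature age, where 22.2% and 24.9% of all genes were called lower. Abcc9, which encodes a subunit of potassium channels of pericytes and is also expressed in muscle, fell by 2.17 (adjusted p = 5.01e-12, edgeR) and 2.52 (adjusted p = 1.16e-13, edgeR) on the log2 scale. Rgs5, a regulator of G protein signalling in pericytes, fell by 1.64 in immature mice (adjusted p = 4.54e-09, edgeR). Its mean in mature mice went from 438 ± 38.0 CPM at 0dpr to 113 ± 35.8 CPM at 2dpr (SD, n = 4 each). Between 2 and 5dpr, the step in which Angpt1 rose, 3 mural genes rose in immature mice and 7 in mature mice, and 0 fell, where 4.37% and 8.16% of all genes were called higher. Of the 20 skeletal muscle genes, 3 rose in immature and 12 in mature mice in that step, and 0 fell. Their part in these rises was not tested. Rgs5 rose by 0.96 in immature mice (adjusted p = 0.000565, edgeR), and Acta2, the actin of smooth muscle and myofibroblasts, by 1.67 in mature mice (adjusted p = 4.55e-05, edgeR). Their means moved the same way at the other age. Rgs5 in mature mice went from 113 ± 35.8 to 228 ± 38.9 CPM (SD, n = 4 and 3). Acta2 in immature mice went from 241 ± 45.1 to 465 ± 86.4 CPM (SD, n = 4 each).

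Between 5 and 14dpr, Angpt4, which encodes a further angiopoietin, rose from 2.21 ± 1.36 to 14.2 ± 6.71 CPM in immature mice (SD, n = 4 each; log2 fold change 2.63, adjusted p = 0.00131, edgeR) and by 2.03 in mature mice (adjusted p = 0.0313, edgeR). Selp, which encodes P-selectin of endothelium and platelets, rose by 1.49 (adjusted p = 0.0188, edgeR) and 1.40 (adjusted p = 0.0398, edgeR). Of the same 80 genes, 1 differed between ages at 0dpr and 1 at 2dpr, and 0 did at the other stages, where 0.726% of all genes were called at 0dpr and 0.627% at 2dpr, so that these counts were near the background. Both were Serpinf1, which encodes an inhibitor of vessel growth that bone cells also secrete. It was higher in immature mice, at 312 ± 82.0 CPM against 156 ± 9.06 CPM at 0dpr (log2 difference 1.00, adjusted p = 0.0034, edgeR) and at 213 ± 49.0 CPM against 123 ± 34.1 CPM at 2dpr (0.79, adjusted p = 0.0407, edgeR; SD, n = 4 each). The summed level of 8 bone genes was 1801 to 11870 CPM in immature and 2396 to 5185 CPM in mature mice at 0dpr, and 4801 to 8269 CPM and 1621 to 3180 CPM at 2dpr, without overlap at 2dpr, and its part in the level of Serpinf1 was not tested.

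The 10 genes were also compared by the shape of their levels over the 10 groups, as the root mean square distance between centred log2 CPM profiles, a description with no test. Pecam1 and Emcn were closest at 0.129, followed by Pecam1 and Cdh5 at 0.167, Kdr and Tek at 0.181 and Cdh5 and Emcn at 0.191. Angpt2 and Angpt1 were farthest apart at 1.40, with Angpt2 and Vegfa at 1.35. Among all 12438 genes with a mean of at least 5 CPM, those nearest to Cdh5 were Fst, Gprc5b and Ankrd50, at 0.0966, 0.116 and 0.132.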

How the data were processed

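Tissue was taken from immature and mature mice at 5 stages, and total RNA was sequenced from Illumina TruSeq stranded libraries in paired-end mode. Per the submitters' processing notes and the methods of the study, the authors mapped reads to GRCm38 and obtained gene counts with STAR 2.5.2a. The authors deposited raw counts for 48733 genes and for a filtered set of 21204 genes, the latter used here. They also deposited a normalized signal table, which equals edgeR's TMM-scaled CPM (largest relative difference 4.99e-15). It was used for gene symbols and identifiers. One transgene row, with at most 0.00223% of reads, stayed in the table. Counts of multiply mapped reads and use of strand are not given in the sources used here.

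All fits were run in R 4.3.3. The main one was edgeR 4.0.16 (built on limma 3.58.1), with TMM scaling and its quasi-likelihood test, in a model of 39 libraries that gave each of the 10 groups 1 coefficient. DESeq2 1.42.0 was an alternative. Tests covered 5 stage comparisons at each age, 5 between ages and 5 interactions, with Benjamini-Hochberg adjustment over 21204 genes and a threshold of 0.05. SE is the absolute log2 fold change divided by the square root of F. Log2 CPM used a prior count of 2, and the Angpt2 to Angpt1 ratio used 0.5 added to each count. Per-kilobase levels used the union of GENCODE exons. All 10 genes were to be reported in every comparison. Of the other genes, up to 3 called in each direction per step or age comparison, with a mean of at least 1 CPM, could be named, and not all of these are. The genes nearest to Vegfa in pattern are not reported here. The genes and lists were chosen with earlier results of these data known.

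The method was tested on simulated counts of 21204 genes for 2dpr against 0dpr in immature mice, with 200 genes changed. It called 66% of genes changed 2-fold and 93% of those changed 4-fold, with 6 false calls among 165. The changed genes were drawn from those with more reads and rose and fell in equal numbers. In the data 44% of genes were called at that step, so the simulation does not show how the test copes with so wide a change. Replicate numbers were checked through the correlation of the deviations from group means between libraries with the same number, which averaged 0.00847 over 154 pairs. Between ages at 0dpr all 4 pairs were above 0.1, from 0.109 to 0.207, a pairing seen in the data alone. A model with these numbers as a block called 0 of the 10 genes there too. The values given above for the ages at 0dpr are from the main model, which had no such block. No 2 libraries of a group agreed within sampling noise (mean squared difference 6.99 or more times that of counting error). Which library was sequenced in which run is not given in the sources used here, and no run effect was tested.

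Other settings tried were DESeq2's Wald test, RLE scaling, 2 other gene filters, only the libraries compared, the replicate block, a muscle score as a covariate, an adjusted p under 0.01, other ratio settings and each library left out in turn.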

Additional observations from a re-analysis of the deposited data

Results flagged for a closer look

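In 90 combinations of a gene and a group of 4 libraries, 5 held 1 library far from the other 3 by Dixon's criterion. Chance alone marks about 1 in 20 such groups. Pecam1 was at 212 CPM in mature 14dpr replicate 2 against 249.5 to 255.5 CPM in the others. Cdh5 was at 162.4 CPM in immature 14dpr replicate 3 against 128.4 to 132 CPM. Flt1 was at 37.16 CPM in immature 2dpr replicate 1 against 46.46 to 47.66 CPM. Vegfa was at 43.64 CPM in immature baseline replicate 6 against 76.9 to 83.28 CPM, and Angpt1 at 47.52 CPM in mature baseline replicate 3 against 37.02 to 37.31 CPM. The 5 libraries are all different.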

How the results depend on the processing

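Of the 20 counts of called genes, those for the 5 interactions and for the ages at 0, 2, 5 and 14dpr were 0 under every alternative run. With only the libraries compared, fewer libraries estimate the spread, and the counts were 1 in place of 6 between baseline and 0dpr and 3 in place of 0 between 5 and 14dpr in immature mice, and 0 in place of 1 between 2 and 5dpr and 2 in place of 0 between 5 and 14dpr in mature mice. With the muscle score as a covariate, they were 1, 1 and 4 in immature mice for 2dpr against 0dpr, 14dpr against 5dpr and 14dpr against baseline, 0, 1, 0 and 1 in mature mice for the 4 consecutive steps, and 0 for the ages at baseline. Vegfa between baseline and 14dpr in immature mice reversed to 0.071 in that fit. Between 5 and 14dpr, DESeq2 called 1 gene in immature and 2 in mature mice, and RLE size factors and edgeR's own filter 1 each in mature mice. The cause was not tested. Vwf at baseline was not called at an adjusted p under 0.01 or with the replicate block (difference -0.78, adjusted p = 0.0679, edgeR), so that the count was 0. In that comparison the numbers did not pair the libraries. In the other stage comparisons the block ended 1 call, that of Emcn between baseline and 0dpr in immature mice (adjusted p = 0.124, edgeR).

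With 1 library left out, counts ranged from 4 to 6, 6 to 6, 1 to 1, 0 to 1 and 6 to 7 for the 4 steps and 14dpr against baseline in immature mice, from 5 to 7, 8 to 9, 0 to 1, 0 to 0 and 7 to 8 in mature mice, and from 0 to 1 for the ages at baseline. The count of 1 between 5 and 14dpr in immature mice was found without replicate 4 of immature 5dpr. A test of medians gave log2 differences of the Angpt2 to Angpt1 ratio of 3.70 and -1.30 in immature mice for the steps from 0 to 2dpr and from 2 to 5dpr, and of 4.14 in mature mice from 0 to 2dpr, each at exact permutation p = 0.0571. With 1 library left out the difference of mean log2 ratios in mature mice from 0 to 2dpr ranged from 3.42 to 4.41, with exact permutation p from 0.0286 to 0.0571. The SE of Angpt2 was larger than those of the other genes in the stage comparisons given above, and the part of read number in this was not tested.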
